A study of Mus musculus with 12 samples.

Results

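Cells entering or in S phase are the cells of the esophageal epithelium that are preparing to copy their DNA or are copying it. Here they were chosen by their own RNA. Counts were summed per cell barcode over the 2 libraries of a mouse, and a barcode was kept when it had 200 or more detected genes and no more than 20% mitochondrial counts. A kept cell was taken as an S-phase cell when it had at least 4 counts in all on 9 S genes (Mcm2, Mcm3, Mcm4, Mcm5, Mcm6, Mcm7, Pcna, Tyms and Rrm2). It also had to have fewer than 3 counts on 8 mitotic genes (Top2a, Mki67, Cdk1, Cenpf, Ccna2, Nusap1, Aurkb and Cdc20) and under 0.4% of its counts on 5 superficial genes (Sprr3, Slpi, Crct1, Cnfn and Sprr1a). This took 107 of 4317 kept cells, 2.48% of them, and these held 18.1% of all S-gene counts. Of the other kept cells, 598 were over the superficial limit, whatever their other counts (superficial cells). Of those under it, 844 had at least 3 mitotic counts (mitotic cells) and 2768 had neither 3 mitotic nor 4 S counts (remaining cells). The name mitotic cells stands for this count only. The class takes in cells in G2 as well as in mitosis, and 205 of its cells (24.3%) also had at least 4 S counts.

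The tissue was peeled epithelium of the esophagus of C57BL/6 mice, with no transgene or treatment named in the labels, in a group of young mice (up to 4 months old) and a group of aged mice (at least 18 months old). Each group had 3 numbered mice and each mouse had 2 libraries made with inDrop, which seals single cells in droplets together with barcoded beads. The labels do not say whether a numbered mouse was 1 animal or a pool. Mice were the replicates. In tests of age, p-values set the difference against the spread between mice. In comparisons of classes within mice, they set it against an estimate of how the class difference varied from mouse to mouse. For single genes, the fitted model estimated this variation with information shared across genes. The spread of 1 gene between mice can therefore be wider than its p-value conveys. The aged mice gave 1, 11 and 17 S-phase cells (mice 1, 2 and 3) of 178, 1250 and 604 kept cells. The young mice gave 28, 36 and 14 of 1026, 544 and 715.

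As background, DNA replication is prepared before S phase, when the origin recognition complex, Cdc6 and Cdt1 load the ring of Mcm2 to Mcm7 onto DNA. This ring is the helicase that later unwinds the double strand. At the start of S phase, cyclin E with Cdk2 and the Dbf4-dependent kinase turn the loaded helicases on, polymerases follow, and Pcna is the sliding clamp that holds them on DNA. E2F transcription factors, released when cyclin D kinases inactivate the retinoblastoma protein, switch on many of these genes together. In stratified epithelium such as that of the esophagus, dividing cells lie in the basal layer, which makes Krt5, Krt14 and Krt15, and cells that leave it stop dividing and make Krt4, Krt13 and Krtdap.

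The E2F and mitotic programs have known DNA letters near gene starts, and 5 promoters are printed here because the report turns on these genes. RefSeq promoter windows for the mouse build GRCm38.p6 cover 250 bases before to 50 bases after each start. They were searched on both strands for E2F letters (TTTGGCGC, TTTCGCGC, TTTGCCGC or TTTCCCGC) and for the cell-cycle homology region (TTTGAA), an element known from mitotic genes. The sequences give the 250 bases before each start, 5′ to 3′ on the gene's strand, and capitals mark the matched letters. Mcm5 lies on the plus strand (chr8:75109259-75109508), and its matches begin 153 and 149 bases before the start and overlap. Mcm6 lies on the minus strand (chr1:128359706-128359955), with matches 110, 106 and 47 bases before the start, the first 2 overlapping. Hells (chr19:38930740-38930989, plus strand) and Cdc6 (chr11:98907901-98908150, plus strand) had 1 match each, 62 and 138 bases before the start, and that of Cdc6 is on the opposite strand. Top2a, a mitotic gene shown for contrast (chr11:99024190-99024439, minus strand), had TTTGAA 179 and, on the opposite strand, 23 bases before its start.
Mcm5: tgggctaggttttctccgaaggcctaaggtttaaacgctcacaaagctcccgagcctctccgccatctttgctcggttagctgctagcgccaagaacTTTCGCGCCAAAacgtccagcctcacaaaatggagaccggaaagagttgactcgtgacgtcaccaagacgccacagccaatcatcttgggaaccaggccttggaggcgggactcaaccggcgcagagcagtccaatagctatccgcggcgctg
Mcm6: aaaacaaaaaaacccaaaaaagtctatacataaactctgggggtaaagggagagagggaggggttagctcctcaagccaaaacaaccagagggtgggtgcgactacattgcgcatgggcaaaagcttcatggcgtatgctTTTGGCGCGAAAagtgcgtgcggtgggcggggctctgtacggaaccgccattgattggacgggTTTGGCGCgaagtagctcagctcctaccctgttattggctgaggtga
Hells: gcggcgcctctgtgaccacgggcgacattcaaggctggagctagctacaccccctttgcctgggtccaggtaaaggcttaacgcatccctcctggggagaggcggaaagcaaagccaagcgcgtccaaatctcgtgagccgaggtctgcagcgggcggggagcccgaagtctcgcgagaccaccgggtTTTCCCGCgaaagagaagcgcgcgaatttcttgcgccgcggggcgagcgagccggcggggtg
Cdc6: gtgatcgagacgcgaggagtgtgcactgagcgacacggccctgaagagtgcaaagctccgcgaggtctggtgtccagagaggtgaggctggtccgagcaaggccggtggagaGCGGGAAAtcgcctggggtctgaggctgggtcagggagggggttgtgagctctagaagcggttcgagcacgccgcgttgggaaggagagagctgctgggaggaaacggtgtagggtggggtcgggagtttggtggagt
Top2a: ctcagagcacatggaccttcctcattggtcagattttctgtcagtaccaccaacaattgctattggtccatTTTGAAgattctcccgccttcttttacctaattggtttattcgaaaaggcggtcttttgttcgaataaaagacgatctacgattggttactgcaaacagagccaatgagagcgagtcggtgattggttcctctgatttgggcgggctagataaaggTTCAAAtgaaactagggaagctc

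Of the 9 S genes, 8 were matched to a window by symbol, all but Mcm4. E2F letters stood in 4 of them (Mcm3, Mcm5, Mcm6 and Mcm7), and not in those of Mcm2, Pcna, Tyms and Rrm2. Of all 32851 windows, 744 (2.26%) held E2F letters, and by gene symbol 704 of 27025 (2.6%) had a window with them. The counts that follow are of genes with a window, and a gene counted when any of its windows matched. Among genes tested against remaining cells in 5 mice (comparison below), the letters stood in 244 of 4720 genes (5.17%). They stood in 15 of 74 genes that were higher in S-phase cells (20.3%) and in 6 of 240 that were lower (2.5%). The low-count filter behind these lists read both classes, so a gene could enter through its S-phase counts alone. Of the 94 genes called higher, 76 also passed on remaining cells alone, and the share with E2F letters was not taken over those. TTTGAA stood in 5 of the 6 mitotic genes of the rule that had a window. It stood in 54 of 104 genes lower in S-phase than in mitotic cells (51.9%), against 382 of the 2588 genes tested in that comparison (14.8%). Mitotic counts set these 2 classes apart, so a list rich in mitotic genes had to follow, and with it a high share of TTTGAA. The filter there also read both classes, so a gene could enter through its mitotic-cell counts alone. TTTGAA also stood in 18 of 74 genes higher than in remaining cells (24.3%). In that comparison it stood in 628 of the 4720 genes tested (13.3%) and in 33 of 240 that were lower (13.8%). It stood in 17.9% of all windows and in a window of 20.2% of all gene symbols. A match is a description of letters and is not a measured binding site.

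The S genes themselves are described without a test because they chose the cells. Levels are CPM, the share of the summed cells' counts scaled to 1e6, and the order of mice is aged mice 2 and 3, then young mice 1, 2 and 3. Aged mouse 1 is left out of levels per mouse from here on, since its only S-phase cell held 2993 counts; that cell had counts of Mcm4 and Mcm6 and of no other S gene.

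Of the helicase subunits, Mcm5 was at 477, 883, 587, 593 and 439 CPM in S-phase cells, against 15.0 in all remaining and 203 in all mitotic cells. Mcm6 was at 636, 372, 455, 396 and 407 CPM, against 22.5 and 113. Mcm2 was at 318, 256, 176, 277 and 627 CPM, highest in young mouse 3. The subunits did not move together across mice: that same mouse had the lowest Mcm3 level, 62.7 CPM, against 302 to 554 in the other 4. Mcm4 was at 191, 349, 279, 396 and 376 CPM, and Mcm7 was counted in only 16 cells and was at 0 in aged mouse 2 and young mouse 3.

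Pcna, the clamp, was at 223, 232, 470, 290 and 313 CPM in S-phase cells, against 46.4 in remaining and 140 in mitotic cells. Tyms, which makes thymidylate, was at 63.6, 93.0, 279, 158 and 219 CPM. Rrm2, the small subunit of ribonucleotide reductase, was at 95.4, 116, 117, 158 and 219 CPM. Of the 9 genes, Rrm2 was the only one whose level over all mitotic cells, 149 CPM, was above that over all S-phase cells, 138 CPM.

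**Figure D1:**
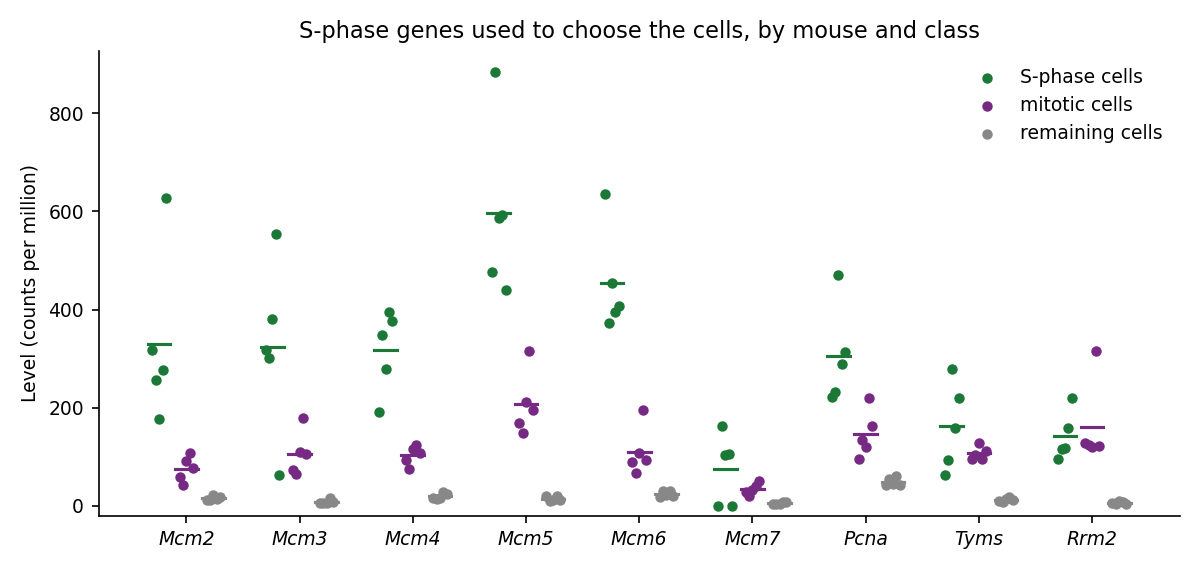
Level of each of the 9 S genes (y axis, CPM of the summed cells of a class) in S-phase, mitotic and remaining cells; each point is 1 mouse (aged mice 2 and 3, young mice 1, 2 and 3) and the bar is their mean. The genes chose the S-phase cells, so the green points lie high by construction; Rrm2 is the gene whose mitotic mean lies above the S-phase mean.

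The S-gene total of a cell was low. The median was 5 counts and the highest 16, and 35 cells stood at the minimum of 4 and 24 at 5. A cell had a median of 3 different S genes, and 44 cells had 4 or more. Mcm genes gave 538 of the 698 S counts, 103 cells had at least 1 Mcm count, and 4 cells were taken on Pcna, Tyms and Rrm2 alone. Mitotic counts were 0 in 63 cells, 1 in 18 and 2 in 26. The other side of the mitotic limit held more S-gene cells than the class itself: 205 of the 844 mitotic cells (24.3%) also had at least 4 S counts.

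Several features of the libraries bear on so few counts. Between 88.1% and 97.8% of a mouse's barcodes were in both of its libraries. Of 369 cell and gene entries of S genes in the S-phase cells, 195 (52.8%) were counted in both libraries and 158 (42.8%) had the same count in both, so a sum of 4 may stand for fewer than 4 molecules, and 49 cells reached 4 in 1 library. Barcodes that differ by 1 letter were frequent: 12 of the 36 S-phase cells of young mouse 2 had such a neighbour among kept cells, and merging them left 29. Shares of barcodes between mice were at most 0.611% of a pair's barcodes. S-phase cells had a median of 2363 counts (mitotic 2231.5, superficial 2156.5, remaining 1989.5). A doublet caller marked 1 S-phase cell, in aged mouse 3. As a background for the rule, 4 of 598 superficial cells met its S and mitotic limits (0.669%, Wilson 95% interval 0.26% to 1.71%), against 107 of the 3719 cells under the superficial limit (2.88%). Intervals cover counting error only.

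All 6 genes given as markers of the class (Mcm2, Mcm5, Mcm6, Pcna, Tyms and Rrm2) belong to the rule, so the label rests on genes outside it. Cells just outside and inside the minimum show how the class passes into its neighbours. Over 136 further replication genes in 5 lists (origin licensing and firing, polymerases and fork factors, nucleotide supply, chromatin replication, and checkpoint and repair), the summed level in the 2153 cells with no S count was 4662 CPM. It was 5187, 5690 and 7516 CPM in cells with 1, 2 and 3 S counts, and 10585, 10755 and 14544 CPM in S-phase cells with 4, 5 and 6 to 16. The 55 cells with 3 S counts thus lay between the cells with 2 and those with 4. Basal keratinocyte genes stood at 14558, 22496 and 28250 CPM at 0, 3 and 4 S counts. Suprabasal genes stood at 56183, 26258 and 14104 CPM at 0, 3 and 4 counts. Median counts per cell ranged from 1951 to 2445 over these bins. The same cells gave both axes, so these values carry no test.

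**Figure D2:**
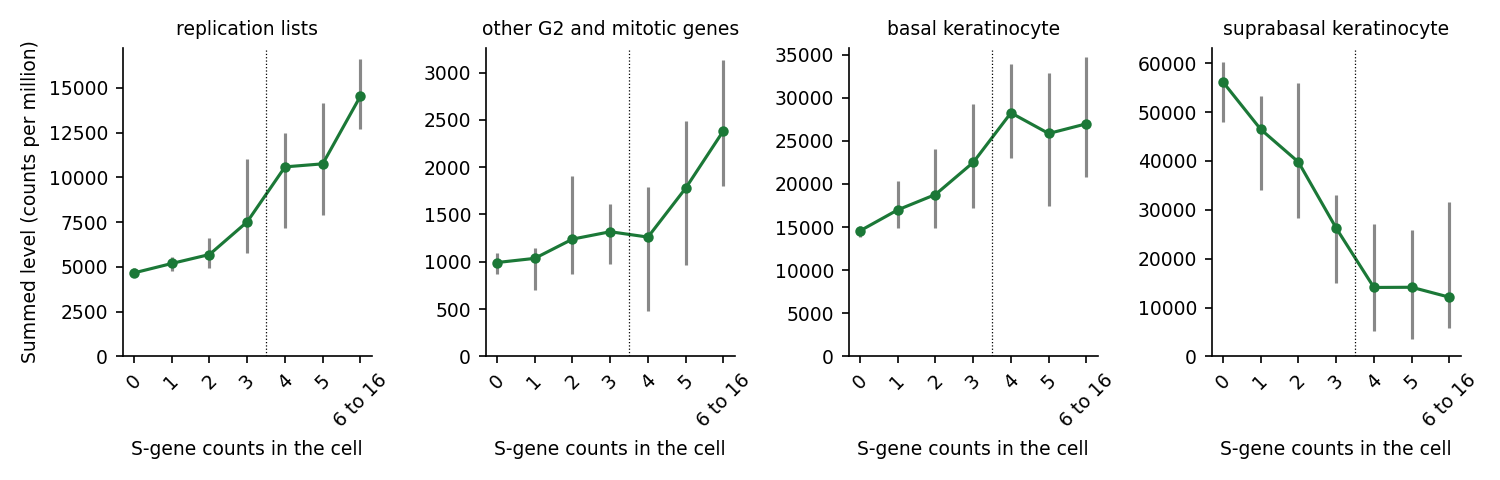
Summed level (y axis, CPM) of 4 gene groups outside the rule in cells with 0, 1, 2, 3, 4, 5 or 6 to 16 S-gene counts (x axis); points are sums over all cells of a bin, grey bars span the lowest to the highest of 5 mice, and the dotted line marks the minimum of 4. Replication genes lie higher and suprabasal genes lower to the right of the line, with cells of 3 counts in between.

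The class was mixed within itself. The 44 S-phase cells with 1 or 2 mitotic counts had 15656 CPM on the replication lists, against 10317 CPM in the 63 cells with none. Their suprabasal level was lower, 8907 against 16152 CPM, while the basal level was alike, 27151 against 27027 CPM. Their median S count was 7, against 5 in the cells with none. Single genes, chosen after their values were seen, went both ways. In cells with mitotic counts against cells with none, Ccne2, a cyclin E, had 14 and 0 counts, Cdc6 12 and 2, and Clspn, a checkpoint adaptor, 10 and 2. Tk1, the thymidine kinase, had 9 and 31 counts (85.9 and 209 CPM). Slbp, which binds histone messages, had 8 and 15 (76.4 and 101 CPM), and E2f1 had 7 and 5. Dut, which keeps uracil out of DNA, had 41 and 44 counts, but by CPM it was higher in the cells with mitotic counts (391 against 296). Krtdap, a gene of cells that have left the basal layer, was counted 17 times in the cells with mitotic counts and 200 times in the cells with none.

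Most of the class were keratinocytes by their markers. Leaving aside 2 cells, the S-phase cells had at least 2 and a median of 66 counts on 20 basal keratinocyte genes and at most 4 counts on fibroblast and immune genes. The 2 exceptions were both in young mouse 1. One held 94 counts of fibroblast genes and 25 of basal genes, and the other held 103 counts of immune genes and none of basal genes. Summed fibroblast genes (8 of 8 in the files) were at 163 to 286 CPM in the aged and 219 to 1659 CPM in the young mice, and immune genes (8 of 11) at 46.5 to 127 CPM and 0 to 1527 CPM; Ptprc and Cd207 were at 0. Endothelial genes (4 of 5 in the files) and muscle genes (2 of 6) had no count in S-phase cells, and melanocyte and glial genes had 3 counts.

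S-phase cells were next compared with remaining cells of the same mice, with the rule genes and mitochondrial genes left out of the table. The remaining cells were not basal cells alone. Krt14 was counted in 54.3% and Krtdap in 58.1% of them, against 92.5% and 20.6% of S-phase cells. How much of a difference from remaining cells, that of a G1 regulator included, goes with the basal state was not tested. The design asked for at least 20 cells per mouse and class, which only young mice 1 and 2 reached. A minimum of 10, chosen after the cells per mouse were known, let in 5 mice. Counts summed per mouse and class were fitted with edgeR's quasi-likelihood test with mouse as a term, and a gene was called at a Benjamini-Hochberg adjusted p under 0.05. In 2 mice, 27 of 6406 genes tested were called higher in S-phase cells (0.421%) and 50 lower (0.781%). The split depended on the processing. It was 3 higher and 107 lower with DESeq2, and 11 and 28 with RLE scaling in edgeR, which is not the scaling of the DESeq2 fit. It was 26 and 212 without the filter on low counts, and 3 and 9 without the fibroblast and immune cells of young mouse 1. In 5 mice, 94 of 5966 were called higher (1.58%) and 322 lower (5.4%). There it was 62 and 1388 with DESeq2, 122 and 228 with RLE scaling and 52 and 457 without the filter. Of the 77 genes called in 2 mice, 60 were called in 5 mice (77.9% of the shorter and 14.4% of the longer list), all in the same direction. The 2-mouse result had 1 residual degree of freedom. Leaving out young mouse 2 moved the 5-mouse count from 416 to 261. Cells were picked by counts, so a gene that goes with S genes from cell to cell had to follow.

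The filter on low counts read both classes, so a gene scarce in remaining cells could enter through its S-phase counts alone and then had to differ. Of the genes called higher, 11 of 27 in 2 mice and 76 of 94 in 5 mice also passed a filter on remaining cells alone. Counts per list below are therefore from that filter, which was chosen after the data were seen. Under it, 61 of 7155 genes were called higher in 5 mice (0.853%) and 355 lower (4.96%), and in 2 mice 60 of 7509 (0.799%) and 144 (1.92%). Fold changes are from the filter over both classes, and genes that did not pass on remaining cells are described by their levels, with no test.

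Over the 5 replication lists, 19 of 68 genes tested in 5 mice and 15 of 72 in 2 mice were called higher and none lower. The median log2 fold change was 0.82 and 1.06, against -0.29 and -0.14 over all genes tested. With the filter over both classes the counts were 31 of 69 and 9 of 80. With no filter they were 30 of 135 and 10 of 134, and DESeq2 called 37 of 135 higher in 5 mice, with 2 lower, and 3 in 2 mice. In this comparison DESeq2 gave an adjusted p to only 7042 genes in 5 mice and 1101 in 2 mice. Its counts per list, here and below, are out of all list genes it fitted, also those without an adjusted p. Without the 2 cells of other types 3 of 80 were called in 2 mice, and without young mouse 2 the 5-mouse count was 23 of 70, both with the filter over both classes.

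Of the polymerases and fork factors, 6 of 17 tested were higher in 5 mice and 6 of 18 in 2 mice. Pclaf, which binds Pcna, was at 318, 116, 499, 277 and 251 CPM in S-phase cells and at 5.2 to 22.3 CPM in remaining cells. No S-phase level fell within the range of remaining cells, and the log2 difference was 4.07 ± 0.45 in 2 mice (SE, edgeR adjusted p = 0.00822); in 5 mice it did not pass on remaining cells. Lig1, the ligase that joins newly made fragments, was higher by 3.03 ± 0.55 in 5 mice (edgeR adjusted p = 2.62e-06) and missed the threshold in 2 (adjusted p = 0.0552). Pola1, the catalytic polymerase subunit that works with primase, was at 95.4 to 186 CPM against 17.0 to 27.4 CPM (2.42 ± 0.53, edgeR adjusted p = 0.000265). Clspn had 12 counts in 8 S-phase cells, was at 0 in aged mouse 3 and young mouse 3, and had 15 counts in all remaining cells.

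Of 24 licensing and firing genes, 9 passed on remaining cells, 2 were called higher in 5 mice and none in 2. Cdc6, the loader of the helicase, was at 63.6, 46.5, 29.4, 52.7 and 125 CPM against 0 to 1.31 CPM in remaining cells. Its 14 counts came from 6 cells. Gmnn, the inhibitor of Cdt1 that prevents a second round of licensing, was higher by 1.82 ± 0.56 (edgeR adjusted p = 0.0215), but missed the threshold with DESeq2 (1.24, adjusted p = 0.056). Cdt1 itself was at 63.6, 209, 220, 13.2 and 219 CPM against 5.32 to 22.4 CPM, with aged and young mice overlapping.

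Nucleotide supply genes were called higher in 6 of 21 tested in 5 mice and 5 of 22 in 2 mice. Rrm1, the large subunit of ribonucleotide reductase, was at 254, 209, 470, 343 and 219 CPM against 38.3 to 56.8 CPM, and was called in 2 mice (2.75 ± 0.35, edgeR adjusted p = 0.00943) and in 5 (2.46 ± 0.36, adjusted p = 1.42e-09). Dut was at 318, 256, 440, 343 and 251 CPM against 33.8 to 71.1 CPM (2.37 ± 0.34 in 5 mice, edgeR adjusted p = 4.51e-10). Tk1 was higher by 2.66 ± 0.54 in 5 mice (edgeR adjusted p = 5.48e-05). It missed the threshold in 2 mice (adjusted p = 0.13 with edgeR).

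Chromatin genes were called higher in 5 of 17 tested in 5 mice and 4 of 19 in 2 mice. Hells, a chromatin remodeller needed for DNA methylation, was at 63.6, 139, 161, 211 and 94.0 CPM against 7.67 to 22.4 CPM, with no overlap. Dnmt1, which copies methylation to the new strand, was at 73.4 to 219 CPM against 13 to 23 CPM (2.40 ± 0.54, edgeR adjusted p = 0.000395). Asf1b, a histone carrier, was at 31.8 to 105 CPM against 5.2 to 14.6 CPM and Slbp at 69.7 to 125 CPM against 7.45 to 19.1 CPM. Rbbp4, a histone-binding subunit of several complexes, was at 127, 139, 617, 620 and 188 CPM against 171 to 208 CPM. It was called in young mice 1 and 2 (1.64 ± 0.22, edgeR adjusted p = 0.00943) and not in 5 mice (0.72, adjusted p = 0.0566), where both aged mice lay below the range of remaining cells.

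Of 30 checkpoint and repair genes, 4 passed on remaining cells in each set of mice, and none was called. Chek1, the checkpoint kinase, had 13 counts in 7 S-phase cells and was at 0 in aged mouse 2.

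Regulators of G1 and of entry into S phase were divided. In 5 mice, 1 of 16 tested was higher and 1 lower, and in 2 mice 1 of 18 was higher and 1 lower. Cdkn1a, the p21 inhibitor of cyclin kinases, was at 223, 256, 323, 52.7 and 157 CPM in S-phase cells and at 629 to 803 CPM in remaining cells. The groups of values did not overlap, and it was lower in 5 mice (-2.05 ± 0.22 on the log2 scale, edgeR adjusted p = 7.28e-18) and called in 2 mice as well (adjusted p = 0.026). Ccnd2, a cyclin D, was at 1049, 953, 690, 1081 and 972 CPM against 393 to 597 CPM (0.68 ± 0.16 in 5 mice, edgeR adjusted p = 0.000878; adjusted p = 0.151 in 2 mice). It was not called in 5 mice with DESeq2 (0.08, adjusted p = 0.718). E2f1 had 12 counts in 7 cells and Ccne2 14 counts in 8 cells.

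Other G2 and mitotic genes, which the rule did not count, were called higher in 3 of 16 tested and lower in 1 in 5 mice, and higher in 3 of 20 in 2 mice. With DESeq2, 2 of 44 were higher and 3 lower in 5 mice. Smc2 and Smc4, condensin subunits that compact chromosomes, were higher by 2.64 ± 0.52 and 1.18 ± 0.25 in 5 mice (edgeR adjusted p = 2.3e-05 and 8.36e-05), though Smc4 was not called with DESeq2 (0.58, adjusted p = 0.102). Of 23 ribosome production genes 1 was called in 5 mice, Nhp2, lower by 0.84 (-0.84 ± 0.25, edgeR adjusted p = 0.016); it was not called with RLE scaling.

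Basal keratinocyte genes were called higher in 5 of 20 in 5 mice and 5 of 20 in 2 mice, and none was lower. With the filter over both classes the counts were 8 and 1, and with DESeq2 none was higher and 1 lower in 5 mice. Krt14, the keratin of the basal layer, was at 2258, 5160, 5622, 5221 and 7366 CPM against 1389 to 2515 CPM. Its level in aged mouse 2 lay within the range of remaining cells, though above the 1389 CPM of that mouse's own remaining cells. The log2 difference was 1.04 ± 0.11 in 5 mice (edgeR adjusted p = 1.68e-17) and 1.01 ± 0.19 in 2 mice (adjusted p = 0.0352), and missed the threshold with DESeq2 in 5 mice (0.43, adjusted p = 0.0705). Trp63, the transcription factor of basal cells, was at 859, 721, 749, 686 and 721 CPM against 395 to 443 CPM (0.63 ± 0.17 in 5 mice, edgeR adjusted p = 0.00692; 0.879 with DESeq2). Itgb1, an integrin that anchors basal cells, was at 350 to 541 CPM against 205 to 251 CPM (0.79 ± 0.22, adjusted p = 0.0103 with edgeR in 5 mice; 0.549 with DESeq2).

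Suprabasal genes were lower in 17 of 19 tested in 5 mice and in 14 of 19 in 2 mice, and none was higher. With DESeq2 19 of 20 were lower in 5 mice. With the filter over both classes 16 of 18 and 8 of 19 were lower, and the median was -2.51 in 5 mice, or -2.38 with the gene that had no count set at its bound. Krt4, the keratin of suprabasal cells, was at 6614, 9390, 6063, 1661 and 4420 CPM against 18814 to 27957 CPM in remaining cells, with no overlap. It was lower in 5 of 5 mice (-2.55 ± 0.11, edgeR adjusted p = 1.41e-123) and in the 2-mouse result (-2.99 ± 0.34, adjusted p = 0.00822). Krtdap was at 763, 1673, 1600, 119 and 31.3 CPM against 5092 to 6120 CPM (-3.10 ± 0.14, edgeR adjusted p = 5.76e-109). S-phase levels of Krt4 and Krtdap varied more between mice than these SEs convey, so their p-values do not measure that spread. Dsg1b, a desmosomal cadherin, had no count in S-phase cells, at least 4.62-fold lower taking 3 counts over the class. How much of the keratin counts in S-phase cells was free RNA in the droplets was not tested.

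Outside the lists, Dtl, a receptor of the ubiquitin ligase that destroys Cdt1 on Pcna, was at 95.4, 93.0, 117, 52.7 and 157 CPM against 6.14 to 16.2 CPM, with no overlap. Nsd2, a histone methyltransferase, was higher in 2 mice and in 5 (2.61 ± 0.55 in 5, edgeR adjusted p = 8.99e-05). Tubb5, a tubulin, was higher in both as well (1.27 ± 0.18 in 5). Fabp5, a fatty acid carrier of differentiating keratinocytes, was at 668, 674, 470, 145 and 219 CPM against 1581 to 2438 CPM (-2.55 ± 0.16, edgeR adjusted p = 1e-52). Serpinb12 and Psapl1 were lower too (-3.29 and -2.98 in 5 mice).

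S-phase cells were then compared with mitotic cells, which the rule set apart by mitotic counts, so lower mitotic genes had to follow. The mitotic class includes the 205 cells that also had at least 4 S counts, so it is not a class of cells in mitosis alone. In 2 mice, 24 of 3431 genes tested were called higher in S-phase cells (0.7%) and 97 lower (2.83%). In 5 mice, 42 of 3224 were higher (1.3%) and 127 lower (3.94%), and 98 genes were called in both (81.0% and 58.0% of the lists), all in the same direction. With DESeq2 the split was 0 higher and 31 lower in 2 mice and 2 and 404 in 5. With no filter on low counts it was 10 and 108, and 7 and 274. With RLE scaling it was 15 and 68, and 48 and 125. With the filter on mitotic cells alone it was 18 (0.358%) and 79 (1.57%) of 5026 genes in 2 mice, and 45 (1.1%) and 157 (3.84%) of 4088 in 5. Of the G2 and mitotic genes outside the rule, 41 of 41 tested were lower in 5 mice and 37 of 41 in 2 mice. Cenpa, the histone of centromeres, was at 14.7 CPM in young mouse 1, from 1 cell, and at 0 in the other 4 mice, against 678 to 789 CPM in mitotic cells (-7.33 ± 0.47 in 5 mice, edgeR adjusted p = 6.16e-14). Aspm, a spindle protein, had no count and was at least 30-fold lower, taking 3 counts over the class.

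Few replication genes were called between the cycling classes. Over the 5 replication lists, 1 of 55 genes tested in 5 mice was called higher in S-phase cells and 5 lower, with a median of 0.11 against -0.04 over all genes tested. In 2 mice, none of 60 was higher and 3 were lower. With the filter on mitotic cells alone 1 of 64 was higher and 7 lower in 5 mice, and with DESeq2 0 and 13 of 136. Paics, of purine synthesis, was the gene higher in 5 mice (0.62 ± 0.17, edgeR adjusted p = 0.0174; 0.83 with DESeq2). Dbf4, the activator of the kinase that fires origins, was at 29.4 CPM in young mouse 1 and 0 in the other 4, against 147 to 187 CPM in mitotic cells (-4.40 ± 0.69 in 5 mice, edgeR adjusted p = 1.53e-05; -3.67 in 2 mice, adjusted p = 0.000426). Pclaf was lower in S-phase than in mitotic cells, where it was at 460 to 841 CPM (-0.95 ± 0.23 in 5 mice, edgeR adjusted p = 0.00643; adjusted p = 0.0628 in 2 mice). Lmnb1, a lamin, and Asf1b were lower also (-1.03 ± 0.21 and -1.32 ± 0.37 in 5 mice), and Neil3, a DNA glycosylase, had no count.

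Of the regulators of G1 and of entry into S phase, 3 of 10 tested were called higher and 1 lower than in mitotic cells in 5 mice, and 1 of 11 higher and 2 lower in 2 mice. With the filter on mitotic cells alone 3 of 14 were higher and 3 lower, and 1 of 17 higher and 2 lower. Ccnd2 was at 268 to 374 CPM in mitotic cells, below every S-phase level, and was higher in S-phase cells by 1.53 ± 0.25 in 2 mice (edgeR adjusted p = 9.07e-08) and 1.63 ± 0.17 in 5 (adjusted p = 3.24e-09); in 5 mice it was called with DESeq2 too (1.09). Ccnd1 was at 382, 349, 147, 396 and 282 CPM against 97.9 to 163 CPM (1.38 ± 0.31 in 5 mice, edgeR adjusted p = 0.00248; 0.0734 in 2 mice, and 0.121 in 5 mice with DESeq2). Myc, a driver of growth, was higher by 0.84 ± 0.23 in 5 mice (edgeR adjusted p = 0.0194; 0.268 in 2 mice, and 0.479 in 5 mice with DESeq2). Of the kinase inhibitors, Cdkn2d was lower in S-phase cells in 2 and in 5 mice (-2.63 ± 0.44 in 5, edgeR adjusted p = 3.97e-05). Cdkn1a did not pass the test (-0.01, adjusted p = 0.996).

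None of 18 basal keratinocyte genes was called against mitotic cells in either set of mice (median 0.21 in 2 mice and 0.14 in 5), although 4 of 20 were lower with DESeq2 in 5 mice and 3 of 20 with no filter. In these tests of the suprabasal genes only Calml3 was called, in 5 mice, higher in S-phase cells (1.01 ± 0.31, edgeR adjusted p = 0.0494; 0.448 with DESeq2). Krt4 differed by 0.20 (adjusted p = 0.463) and Krt5 by 0.00 (adjusted p = 0.996) in 5 mice. Npm1, a nucleolar protein, was called higher in S-phase cells, the only one of 15 ribosome production genes (0.61 ± 0.14 in 5 mice, edgeR adjusted p = 0.00334; 0.814 with DESeq2). In 2 mice, the fibroblast gene Dcn and the immune gene H2-Ab1 were called higher in S-phase cells (1.44 and 1.78); without the 2 exceptional cells of young mouse 1 neither list had a called gene. Sparc, a matrix protein gene, was at 63.6, 93.0, 411, 356 and 407 CPM against 68.4 to 124 CPM in mitotic cells (1.47 ± 0.36 in 5 mice, edgeR adjusted p = 0.00678; 0.19 with DESeq2), with only the young mice above that range.

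**Figure D3:**
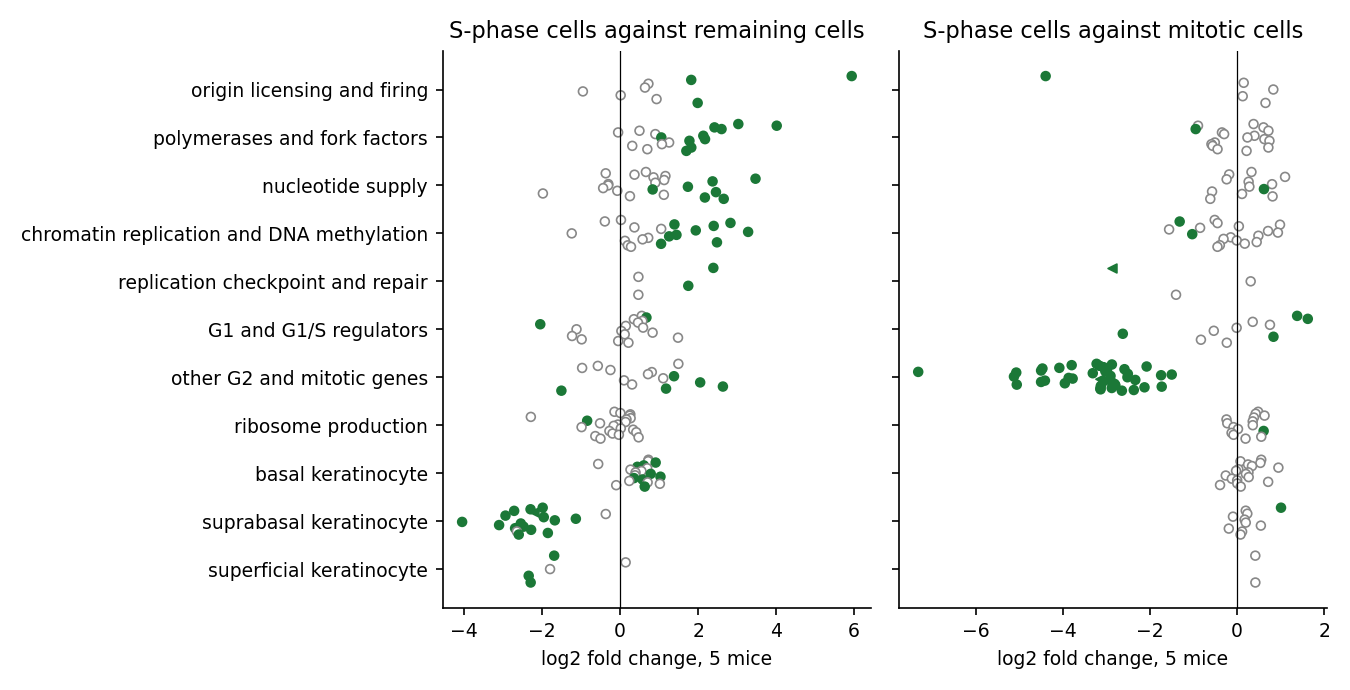
Log2 fold change (x axis, 5 mice, low-count filter over both classes) of each tested gene of 11 lists (y axis) in S-phase cells against remaining cells (left) and against mitotic cells (right); filled points passed an adjusted p under 0.05, open points did not, and triangles stand at the bound of genes with no count in S-phase cells. Suprabasal genes lie low on the left and other G2 and mitotic genes low on the right, while replication lists lie right of 0 on the left panel and around 0 on the right panel.

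The study compared young with aged epithelium, and age was not used to choose the cells. S-phase cells made up 0.562%, 0.88% and 2.81% of kept cells in aged mice 1, 2 and 3 (Wilson 95% intervals 0.0992% to 3.11%, 0.492% to 1.57% and 1.76% to 4.46%). For the young, in the same order, they made up 2.73%, 6.62% and 1.96% (1.89% to 3.92%, 4.82% to 9.03% and 1.17% to 3.26%). The groups overlapped: aged mouse 3 lay above young mice 1 and 3. The means were 1.42% ± 1.22 (SD, n = 3) and 3.77% ± 2.50 (SD, n = 3), a difference of -2.35 points that did not pass a two-sided exact permutation test (p = 0.3; the smallest p this design allows is 0.1). Without young mouse 2 the difference was -0.92 points. In a further run each cell was thinned to 1000 counts, with a minimum of 2 S counts and fewer than 2 mitotic counts. This left out 6, 144 and 18 cells of the aged and 27, 44 and 23 of the young mice. The difference was then -2.76 points (exact permutation p = 0.3).

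As a share of S-phase plus mitotic cells, S-phase cells were 2.7%, 5.14% and 11.7% in aged and 10.7%, 23.8% and 9.79% in young mice. Aged mouse 3 again lay among the young mice. The means of 6.52% ± 4.67 and 14.8% ± 7.86 (SD, n = 3 each) differed by -8.26 points (two-sided exact permutation p = 0.3), and by -3.74 points without young mouse 2.

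The series title names a change in mitochondria with age, and the S-phase cells were read for it within the 20% limit of the rule. Mitochondrial genes took 7.99% (from 1 cell), 9.63% and 5.96% of S-phase counts for the aged group. They took 5.31%, 6.41% and 5.18% for the young group, both in order of mouse number. Aged mouse 3 lay below young mouse 2. The means of 7.86% ± 1.84 and 5.63% ± 0.68 (SD, n = 3 each) differed by 2.23 points (two-sided exact permutation p = 0.2), or by 1.34 points without aged mouse 2. In each mouse S-phase cells lay within 0.482 points of the remaining cells, which were at 7.66%, 9.42% and 6.07% in aged and 5.34%, 5.93% and 5.16% in young mice.

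**Figure D4:**
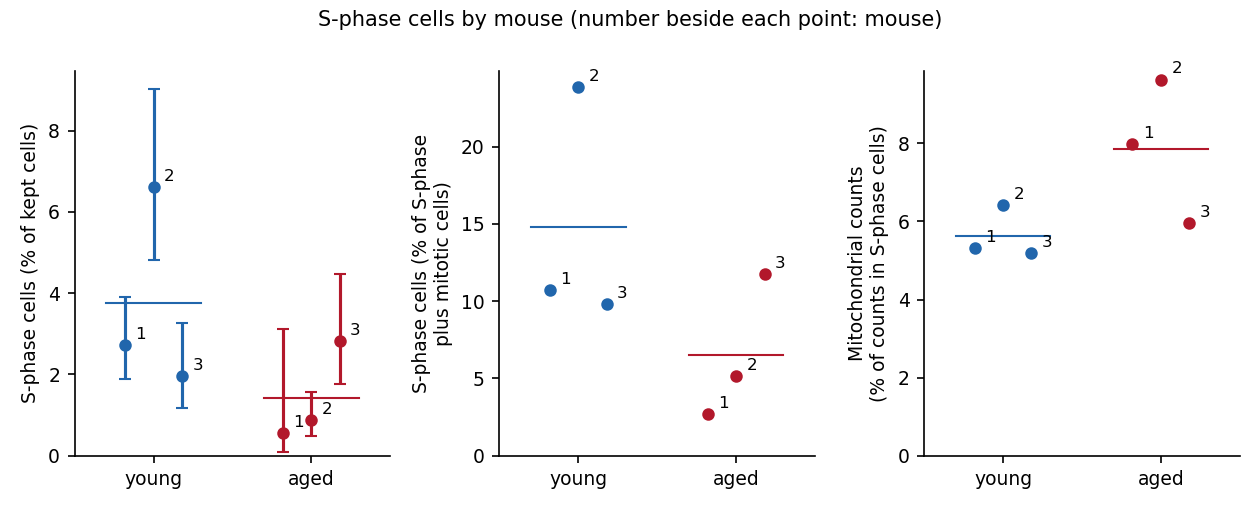
S-phase cells as a percent of kept cells (left, bars are Wilson 95% intervals), S-phase cells as a percent of S-phase plus mitotic cells (middle) and mitochondrial counts as a percent of counts in S-phase cells (right), each point 1 mouse with its number and each line the mean of 3 mice. Aged mouse 3 lies within the young range in all 3 panels, and young mouse 2 lies above the others in the left and middle panels.

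For single genes with age, no aged mouse reached 20 S-phase cells, so the fit as designed could not be made. With a minimum of 10 cells, 2 aged and 3 young mice entered. None of 891 genes tested was called (0%) with edgeR at an adjusted p under 0.05, and the unadjusted p was under 0.05 for 40. With DESeq2 the count was 0 as well, and 95 by unadjusted p. The levels of 181 genes (20.3%) did not overlap between the groups. Values in random order over 2 and 3 mice would give about that share. Lack of overlap, also where it is given below, therefore does not set a gene apart. These sums held 31448 to 75850 counts a mouse, so 1 count was worth 13.2 to 31.8 CPM.

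The genes nearest the threshold were Klf6 and Hspa5. Klf6, a transcription factor of the early response to stress and injury, was at 1526 and 1418 CPM in the S-phase cells of aged mice 2 and 3. In the young group it was at 719, 527 and 502 CPM. The groups did not overlap, and the log2 difference of 1.33 ± 0.33 missed the threshold (edgeR adjusted p = 0.0531). Adjusted p ranged from 0.0118, in library 1 alone, where Klf6 was called, to 0.999 over the alternatives. Hspa5, the chaperone of the endoplasmic reticulum, was at 223 and 209 CPM in aged and 602, 1028 and 502 CPM in young mice (-1.75 ± 0.44, edgeR adjusted p = 0.0531; 0.0531 to 0.999 over the alternatives).

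Of the other genes whose levels did not overlap, Clk1, a kinase of splicing factors, was at 477 and 511 CPM in aged and 117, 158 and 188 CPM in young mice (1.72, edgeR adjusted p = 0.171). Sparc was at 63.6 and 93.0 CPM in aged and 411, 356 and 407 CPM in young mice (-2.24, edgeR adjusted p = 0.124). Rbbp4 was at 127 and 139 CPM against 617, 620 and 188 CPM (-1.89, adjusted p = 0.124 with edgeR). None passed the test in these mice.

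Of 17 genes listed for age from earlier results over all cells, 4 passed the filter in S-phase cells and none was called. H19, an imprinted long non-coding RNA, was at 1463 and 1255 CPM in aged and 2862, 2465 and 3260 CPM in young mice, with no overlap (-1.05 ± 0.32, edgeR adjusted p = 0.207). Fst, which binds activins, was at 0 and 46.5 CPM in aged and 132, 303 and 251 CPM in young mice (-2.99, adjusted p = 0.883 with edgeR). Ccn1, a secreted matrix protein, overlapped, at 63.6 and 628 CPM against 161, 303 and 721 CPM (0.05, adjusted p = 0.998). mt-Nd2, a mitochondrial gene of respiratory complex I, was at 9730 and 5090 CPM in aged and 4257, 5036 and 5266 CPM in young mice, high in aged mouse 2 alone (0.63, adjusted p = 0.992). Cdkn2a, the p16 and Arf inhibitor of cycling, had 1 count in all S-phase cells.

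Whether the age difference of a gene was different in S-phase and in remaining cells was tested as an interaction. None of 7972 genes was called (0%) with edgeR in 5 mice, and the unadjusted p was under 0.05 for 249. With DESeq2 none was called either. Krt4 in S-phase cells was at 6614 and 9390 CPM in aged mice, against 6063, 1661 and 4420 CPM in young mice, with an age difference of 1.01 (edgeR adjusted p = 0.259) and an interaction of 0.86 ± 0.23 (adjusted p = 0.791). The interaction passed the threshold with the other scaling (0.93, edgeR adjusted p = 0.000443), without a filter on low counts (0.87, adjusted p = 0.00896) and with near barcodes merged (1.11, adjusted p = 0.0494). Krtdap was at 763 and 1673 CPM with age and at 1600, 119 and 31.3 CPM in the young. Without young mouse 1 its interaction was 3.5 (edgeR adjusted p = 1.66e-10), and Mt4 and Fabp5 were called there too (2.50 and 2.12). Without young mouse 3 the interaction of Rbbp4 was called (-2.56, edgeR adjusted p = 0.0247). Without aged mouse 3, aged mouse 2 alone stood for the aged group, so only effect sizes are given. The age difference within S-phase cells was then 1.49 for mt-Nd6, 1.10 for mt-Nd4 and -1.38 for Krt14. In aged mice 2 and 3, mt-Nd6 was at 9540 and 2789 CPM, against 3435, 3467 and 3511 CPM in young mice. For mt-Nd4 the levels were 18825 and 10111 CPM against 9160, 9954 and 7617 CPM. For Krt14 they were 2258 and 5160 CPM against 5622, 5221 and 7366 CPM.

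**Figure D5:**
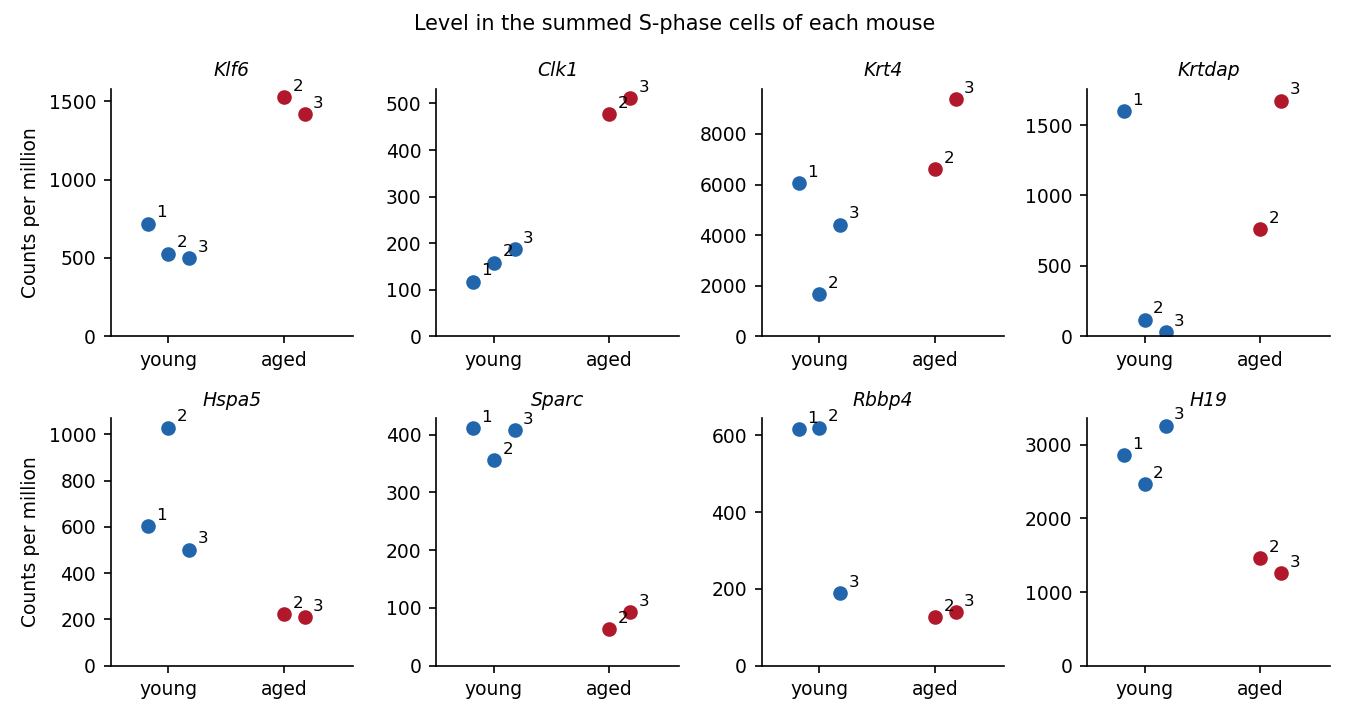
Level (y axis, CPM) of 8 genes in the summed S-phase cells of young mice 1, 2 and 3 and aged mice 2 and 3, each point 1 mouse with its number. Klf6, Clk1, Hspa5, Sparc, Rbbp4, Krt4 and H19 do not overlap between the groups and Krtdap does. Of all 891 genes tested, 20.3% did not overlap, and no gene passed the test.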

How the data were processed

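The deposited files give counts per gene and cell barcode for 12 libraries, made in pairs from 6 mice (3 per age group). Per the submitters' processing notes, the authors used UMI-tools 1.0.0, STAR 2.7, Subread 2.0.0 with featureCounts, Seurat and the build GRCm38; their settings and any barcode filter are not given in the sources used here. From the deposited counts, the libraries of a mouse were summed by barcode and cells were classed by the rule given above (Python 3.11.15, pandas 2.3.3, numpy 2.4.6). Counts were summed per mouse and class and tested with edgeR 4.0.16 in R 4.3.3 (TMM scaling, filterByExpr, Benjamini-Hochberg). DESeq2 1.42.0 was an alternative. Standard errors were taken as the absolute log2 fold change divided by the square root of F. Shares were tested by exact permutation, listing every split of the mice, and Wilson intervals were taken with scipy 1.17.1. Doublets were called with scrublet in scanpy 1.11.5, without removing cells. The scripts were tested on simulated data.

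The S-phase cells, the lists and the tests were chosen with earlier results of these data known. In each list, up to 4 called genes of largest change and the same direction in every mouse could be named, and up to 5 in each direction outside the lists at a mean of at least 50 CPM. For age, the 4 largest non-overlapping differences in each direction were eligible. Genes named on other grounds (E2F sites, Cdt1, single genes with low counts, genes called in an alternative) were chosen after their values were seen. Some genes that the rule would name are not reported here.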

Additional observations from a re-analysis of the deposited data

How the results depend on the processing

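The difference with age in S-phase share, in the share of cycling cells and in mitochondrial share kept its direction under every alternative run; the exact tests here cannot go below 0.1, so their p-values say nothing of stability. The number of genes called against remaining cells depended on the setting: 77 in 2 mice, 110 with DESeq2, 39 with RLE scaling, 204 with the filter on the compared class alone, 238 without a filter on low counts, 33 in cells with 1500 to 4000 counts, 121 without doublet calls, 211 in library 2 only and 12 without the 2 cells of other types. With at least 10 cells per mouse it was 416, 361 and 324 without aged mouse 2 or 3, 305, 261 and 336 without young mouse 1, 2 or 3, 397 without those 2 cells, 416 with the filter on the compared class alone, 509 with no filter, 1450 with DESeq2, 350 with RLE scaling, 273 in the window of counts and 353 with near barcodes merged. Against mitotic cells it was 121 in 2 mice and 31 with DESeq2, and 169 in 5 mice, 202 with the filter on the compared class alone, 281 with no filter and 406 with DESeq2. The mouse was the block in both: with no replicate block 14 genes were called against remaining and 77 against mitotic cells. For age within S-phase cells, 1 gene was called in library 1 only and 0 when each young mouse was left out. Leaving out aged mouse 2 or 3 left 1 aged mouse in the fit, so those counts are not given. The age by class count was 0, or 1 with RLE scaling, 1 without the filter, 1 with near barcodes merged and 0 to 3 leaving out each young mouse in turn. The causes were not tested. Direction turned for Thbs1 (-0.21) and Sertad4 (-0.38) against mitotic cells in 5 mice without young mouse 2, and with DESeq2 (-0.21 and -0.26). It turned with DESeq2 in 5 mice for Rbbp4 (-0.13) and Glul (-0.079) against remaining cells. It turned for Ccn1 with age: -0.10 with DESeq2, -0.022 without the filter, -0.77 with the replicate block, and -2.42, -0.35 and -0.10 without aged mouse 3, young mouse 1 and young mouse 2 (range over left-out mice -2.42 to 0.83).

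Mouse numbers are shared between the age groups, but the numbers did not pair the mice: over 5226 genes in all cells, deviations of same-numbered aged and young mice correlated at -0.33, -0.12 and -0.14. When the mouse number was a replicate block, 2 genes were called with age, Krtdap (3.55, edgeR adjusted p = 0.0025) and Mt4 (2.17, adjusted p = 0.0471). Number 1 held only young mouse 1 in that fit, so the age difference came from mice numbered 2 and 3 alone. The share differences, paired over all 3 numbers, had exact sign-flip p-values of 0.5, 0.5 and 0.25. Gene tests at a minimum of 6 S counts, and leaving out a mouse of the 2-mouse results, could not be fitted. At 31448 to 75850 S-phase counts a mouse, 891 genes passed the filter of the age comparison.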

Other observations

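Further genes outside the lists were called in S-phase cells. All those named here also passed a filter on low counts in the compared class alone. Against remaining cells in 5 mice, Nrm, a nuclear envelope protein, was at 254, 93.0, 220, 185 and 157 CPM (aged mice 2 and 3, then young mice 1, 2 and 3) against 26.6 to 64.5 CPM (1.90 ± 0.44, edgeR adjusted p = 0.000679). Bex3 was at 69.7 to 223 CPM against 29.6 to 45.9 CPM (1.87 ± 0.47, edgeR adjusted p = 0.00191). Nfic, a transcription factor, was higher in 2 mice (1.07 ± 0.21, edgeR adjusted p = 0.044) and in 5 (0.85 ± 0.20, adjusted p = 0.000588), although its 223 CPM in aged mouse 2 lay below the 333 CPM of that mouse's remaining cells. Nrm and Bex3 were higher in 5 of 5 mice and Nfic in 4 of 5.

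Against mitotic cells in 5 mice, Dusp6, a phosphatase that is itself switched on by the ERK kinase pathway, was at 223, 256, 308, 92.3 and 125 CPM against 38.3 to 130 CPM (1.44 ± 0.39, edgeR adjusted p = 0.0157). The ranges overlapped, but it was higher in 5 of 5 mice. The small nucleolar RNA host gene Snhg4 was at 382, 209, 117, 132 and 94.0 CPM against 29.6 to 51.8 CPM (2.11 ± 0.44, edgeR adjusted p = 0.000988), and the secreted Igfbp4 was called higher as well (1.39). With DESeq2 in 5 mice Snhg4 was called, Dusp6 and Igfbp4 were not (adjusted p = 0.167 and 0.246), and Nfic was not called against remaining cells (0.21, adjusted p = 0.584). Snhg4, Dusp6 and Igfbp4 missed the threshold in 2 mice (adjusted p = 0.23, 0.13 and 0.335 with edgeR).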
